A study of Mus musculus with 23 samples.

Results

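The serum amyloid A (SAA) genes of the mouse, *Saa1*, *Saa2*, *Saa3* and *Saa4*, were 4 of the 48897 genes in the deposited table and were chosen by their gene symbols. The study asked how the liver changes before metastases appear, in male BALB/c mice given CT26 cells, a mouse colon carcinoma line, by injection into the serosa of the cecum. From 9 such mice (M1, M2, M4, M5, M6, M7, M8, M10 and M12), the primary tumor and the liver, here called pre-metastatic, were taken and compared with each other and with the control liver of 5 sham-operated mice (C1, C4, C5, C6 and C7), which had no tumor. All mice were 4 to 6 weeks old when the study began, and the tissues were taken 3 weeks after injection. CT26 is 1 established line, and a tumor piece holds host cells beside its own. Poly(A) RNA of whole tissue pieces was sequenced, which gave 44587556 to 79773163 counts per library, 5, 9 and 9 libraries a group.

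SAA proteins are small apolipoproteins that travel on high-density lipoprotein (HDL). SAA1 and SAA2 are the classical acute-phase proteins, made by hepatocytes when IL-6, IL-1 and TNF act through STAT3, NF-kB and C/EBP factors, and their long-lasting excess can form amyloid. SAA3 is an inducible form that macrophages, adipocytes, epithelia and other cells outside the liver also make, and SAA4 is the constitutive form. SAA proteins act on neutrophils and macrophages through formyl peptide receptors and Toll-like receptors.

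The genes lie together on chromosome 7 (mm10), within 42317 bases from 46711998 to 46754314. *Saa3* (46711998 to 46715676), *Saa4* (46727998 to 46732543) and *Saa1* (46740497 to 46743071) are on the minus strand, and *Saa2* (46751769 to 46754314) is on the plus strand. *Saa1* and *Saa2* therefore point away from each other, with 8697 bases between them. The windows of 300 bases around their start sites, from 250 bases before to 50 bases after the start, were taken from RefSeq (GRCm38.p6) for all 4 genes, since these genes moved together in the liver and apart in the tumor. They are chr7:46742931-46743230 (minus strand) for *Saa1*, chr7:46751583-46751882 (plus strand) for *Saa2*, chr7:46715627-46715926 (minus strand) for *Saa3* and chr7:46732554-46732853 (minus strand) for *Saa4*, and each is written 5′ to 3′ along its gene. The starts are those of RefSeq, which for *Saa1*, *Saa2* and *Saa4* differ from the gene boundaries given above. Distances below are counted from the RefSeq starts. Capitals mark matches to the C/EBP letters TTNNGCAA or the NF-kB letters GGNNNTTTCC on either strand, where N is any base.
Saa1: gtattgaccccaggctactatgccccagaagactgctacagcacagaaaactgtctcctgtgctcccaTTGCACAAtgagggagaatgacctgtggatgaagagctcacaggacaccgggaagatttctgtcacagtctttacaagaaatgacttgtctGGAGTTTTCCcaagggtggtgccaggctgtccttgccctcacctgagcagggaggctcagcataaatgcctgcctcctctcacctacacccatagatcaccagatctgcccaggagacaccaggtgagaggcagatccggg
Saa2: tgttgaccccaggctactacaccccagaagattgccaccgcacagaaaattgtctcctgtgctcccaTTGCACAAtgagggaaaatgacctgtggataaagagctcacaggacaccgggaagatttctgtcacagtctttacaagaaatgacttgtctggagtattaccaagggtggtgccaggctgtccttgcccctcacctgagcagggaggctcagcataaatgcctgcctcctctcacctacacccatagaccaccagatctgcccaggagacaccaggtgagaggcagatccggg
Saa3: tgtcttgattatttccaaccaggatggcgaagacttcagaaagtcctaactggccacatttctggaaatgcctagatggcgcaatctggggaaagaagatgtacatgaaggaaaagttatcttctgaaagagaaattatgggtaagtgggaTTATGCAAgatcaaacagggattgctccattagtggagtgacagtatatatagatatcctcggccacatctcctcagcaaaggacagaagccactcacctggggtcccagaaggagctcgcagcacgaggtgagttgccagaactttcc
Saa4: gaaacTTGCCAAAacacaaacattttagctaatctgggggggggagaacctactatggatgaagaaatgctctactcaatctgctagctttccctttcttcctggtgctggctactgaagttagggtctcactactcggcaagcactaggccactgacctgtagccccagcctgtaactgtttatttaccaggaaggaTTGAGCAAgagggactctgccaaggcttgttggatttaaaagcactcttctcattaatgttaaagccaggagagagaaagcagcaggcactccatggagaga

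The windows of *Saa1* and *Saa2* had the same base at 287 of 299 aligned positions (96.0%). Each held 1 match to the C/EBP letters, which began 182 bases before the start in *Saa1* and 183 bases before it in *Saa2*. The *Saa1* window also held 1 match to the NF-kB letters, 91 bases before the start, and the *Saa2* window held none. The *Saa3* window held 1 C/EBP match at 99 bases before the start, and the *Saa4* window held 2 such matches, at 245 and 52 bases before it. No window held the STAT letters TTCNNNGAA. Among 32851 mouse promoter windows of this length, 10.8% held the C/EBP letters, 5.48% the NF-kB letters and 8.30% the STAT letters. The letters were chosen after the sequences had been seen, no match overlapped another, and a match describes the sequence and shows no binding.

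*Saa1* and *Saa2* are also close in their transcripts, which bears on how reads are divided between them. In the GENCODE M21 transcripts, 348 of 366 coding bases of *Saa1* and *Saa2* were the same (95.1%), against 76.0% for *Saa1* and *Saa3* and 67.7% for *Saa1* and *Saa4*. The main transcripts of *Saa1* and *Saa2* shared 74 of 560 windows of 50 bases (13.2%) and 0 of 510 windows of 100 bases. How reads that match both genes were assigned is not given in the sources used here, so the split between *Saa1* and *Saa2* is less certain than their sum.

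In control liver, *Saa1* and *Saa2* varied widely between mice and *Saa4* was the steadiest member. Levels are given in RPKM, the count divided by gene length and library total, which allows genes of unlike length to be compared. *Saa1* was at 1273, 422, 34.2, 186 and 38.0 RPKM in mice C1, C4, C5, C6 and C7. *Saa2* was at 473, 92.5, 15.4, 31.3 and 13.96 RPKM in the same order. Mouse C1 stood highest for both genes, and its level was 37.2 times the lowest for *Saa1* and 33.9 times the lowest for *Saa2*. *Saa3* was at 5.33, 11.3, 18.6, 5.46 and 9.56 RPKM, with C1 the lowest and C5 the highest. *Saa4* was at 121, 130, 87.3, 177 and 102 RPKM, a spread of 2.03 times. By median the order was *Saa1*, *Saa4*, *Saa2* and *Saa3*, but the ranges of all neighbours in that order overlapped, and *Saa1* exceeded *Saa4* in 3 of 5 livers.

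All 4 SAA genes were higher in pre-metastatic liver, and their order was different there. *Saa1* was lowest at 1544 RPKM (mouse M10), with a median of 5514 and a highest value of 10619 RPKM (mouse M7). *Saa2* ranged from 631 (M10) through a median of 4296 to 10433 RPKM (M7). Every pre-metastatic liver thus lay above every control liver for both genes, although the distance between M10 (1544 RPKM) and C1 (1273 RPKM) was small for *Saa1*. *Saa3* ranged from 28.3 (M10) through a median of 78.7 to 107 RPKM (M1), all above the highest control value of 18.6 RPKM. *Saa4* ranged from 264 (M6) through a median of 461 to 557 RPKM (M12), all above the highest control value of 177 RPKM. The order by median was *Saa1*, *Saa2*, *Saa4* and *Saa3*. *Saa1* exceeded *Saa2* in 9 of 9 livers with overlapping ranges, whereas *Saa2* and *Saa4*, and *Saa4* and *Saa3*, did not overlap.

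**Figure D1:**
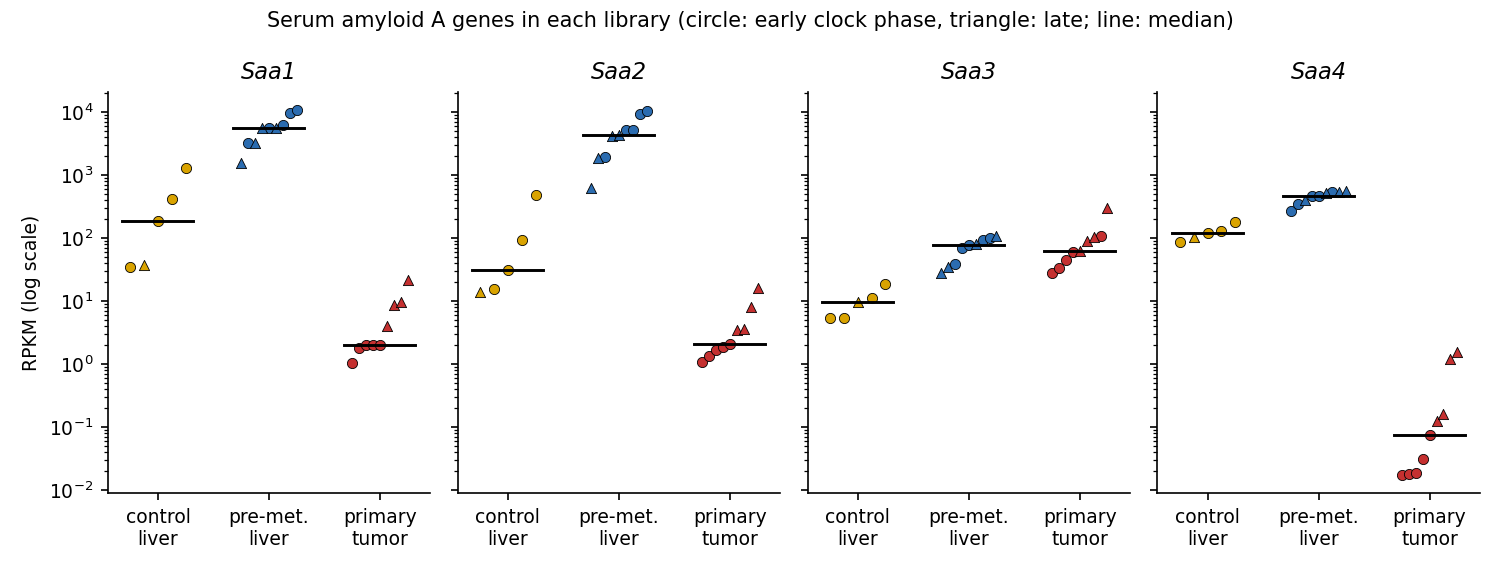
Level of each SAA gene in every library, in RPKM on a log axis, by tissue (5 control livers, 9 pre-metastatic livers, 9 primary tumors). Circles are libraries of early clock phase mice and triangles of late clock phase mice, and the line is the median. All 4 genes are higher in every pre-metastatic liver than in every control liver, and in the tumor only *Saa3* overlaps the range of the pre-metastatic livers.

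The livers fell into an early and a late set by their circadian clock genes, with 4 control and 5 pre-metastatic livers early and 1 control and 4 pre-metastatic livers late. Pre-metastatic and control livers were compared by edgeR's quasi-likelihood test with Benjamini-Hochberg adjustment over 16987 genes, of which 17.6% were called higher at an adjusted *p* under 0.05 and 13.3% lower. All 4 SAA genes were called higher. Their groups also did not overlap, as was the case for 4.85% of the genes tested in that direction and 6.09% in the other. Scaled by library totals instead of TMM factors, 2354 genes were called higher and 2788 lower, in place of 2996 and 2254, and the 4 SAA genes kept their direction and calls.

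*Saa2* changed most, from 125 ± 197 RPKM (SD, n = 5) in control liver to 4745 ± 3295 RPKM (SD, n = 9), a log2 fold change of 5.28 ± 1.10 (SE), or 38.9-fold (edgeR adjusted *p* = 0.00271). *Saa1* rose from 391 ± 518 to 5666 ± 2961 RPKM, by 3.90 ± 0.90 on the log2 scale, or 14.9-fold (edgeR adjusted *p* = 0.00505). The size of both changes rested on mouse C1. Without C1, the log2 fold change was 7.10 for *Saa2* and 5.19 for *Saa1* (edgeR adjusted *p* = 0.000444 and 0.00108). *Saa3* rose from 10.1 ± 5.45 to 69.8 ± 29.2 RPKM, by 2.89 ± 0.42 on the log2 scale, or 7.43-fold (edgeR adjusted *p* = 0.000234). *Saa4*, the form known as constitutive, rose from 124 ± 34.2 to 453 ± 99.8 RPKM, by 1.95 ± 0.21 on the log2 scale, or 3.88-fold (edgeR adjusted *p* = 3.1e-05). The smallest fold change thus had the smallest adjusted p. The two-sided exact rank-sum test on RPKM gave *p* = 0.000999 for each gene, the smallest that 9 against 5 allows.

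Among the early phase livers alone, the log2 fold changes were 3.91 for *Saa1*, 5.41 for *Saa2*, 2.96 for *Saa3* and 1.74 for *Saa4* (edgeR adjusted *p* = 0.0212, 0.0128, 0.00185 and 0.000925). The late phase held 1 control liver, too few for a comparison. Counted as 1 gene, *Saa1* and *Saa2* together rose by 4.37 ± 0.96 on the log2 scale (edgeR adjusted *p* = 0.00386). The SAA genes took 0.0724% ± 0.0653 (SD, n = 5) of all counts in control liver and 1.03% ± 0.557 (SD, n = 9) in pre-metastatic liver. In the whole tissue, a change in the cells that make a transcript and a change in the transcript per cell cannot be told apart. Over the 9 livers, *Saa1* held between the 4th and the 46th highest RPKM of all genes in its library, and *Saa2* between the 6th and the 98th.

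No rise was called among the genes around the cluster, beside a share of 17.6% over all genes tested. Of 10 other genes within 100 kb of a member, 6 had enough counts for the test, and their edgeR adjusted p lay between 0.198 and 0.709. Their log2 fold changes ran from -0.20 for *Ldha*, lactate dehydrogenase A, to 0.31 for *Sergef*. *Saal1*, next to *Saa3* and named for its likeness to SAA, was at -0.08 ± 0.11 (SE, edgeR adjusted *p* = 0.615).

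The proportion of *Saa1* to *Saa2* differed from liver to liver. In control liver the ratio of their RPKM values was 2.69, 4.57, 2.22, 5.93 and 2.72 in C1, C4, C5, C6 and C7. In pre-metastatic liver it ranged from 1.02 in M7 through a median of 1.30 to 2.45 in M10. M7 had the highest sum of both genes (21052 RPKM) and M10 the lowest (2175 RPKM), so that in pre-metastatic liver the ratio was low where the sum was high. Among the control livers no such order was seen, since C5 had the lowest sum and the lowest ratio. The groups overlapped through M10 and C5, and the ratio was not tested because the reads of this pair may be shared.

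**Figure D2:**
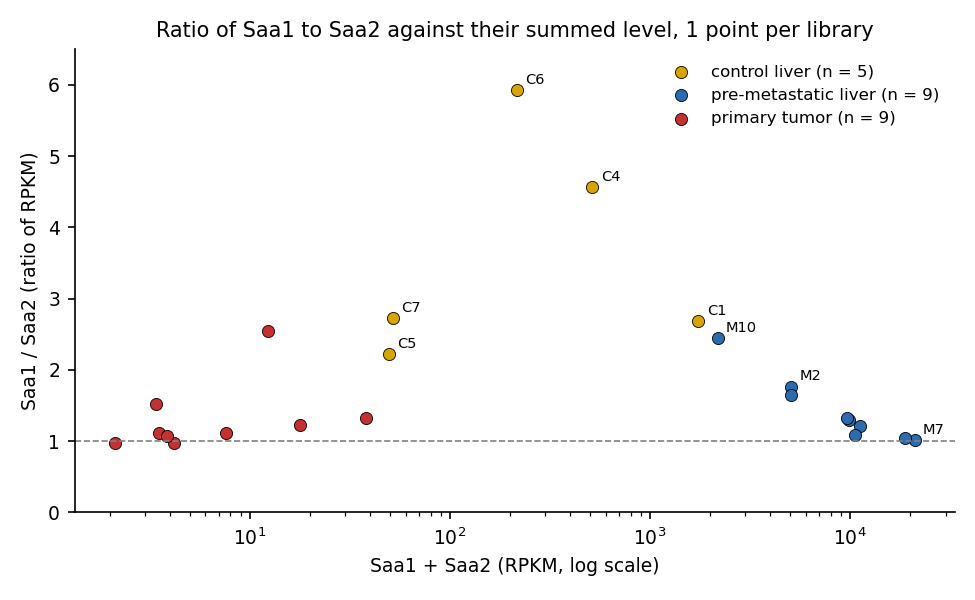
Ratio of *Saa1* to *Saa2* (RPKM over RPKM) against their summed RPKM on a log axis, 1 point per library. The dashed line marks equal levels, and control livers and the pre-metastatic livers M2, M7 and M10 are named. The pre-metastatic livers lie between 1.02 and 2.45 and the control livers between 2.22 and 5.93.

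Across the 9 pre-metastatic livers, *Saa1* and *Saa2* rose and fell together. On log2(RPKM + 0.1), Pearson's r was 0.996 and Spearman's rho 0.967 (exact permutation *p* = 4.13e-05 and 0.000165, adjusted *p* = 0.000248 and 0.000992 over 6 relations). Without M7 and M10, the livers farthest from the median, r was 0.990 (exact permutation *p* = 0.00298), and within the clock phases rho was 0.985 (exact permutation *p* = 0.000347). The possible sharing of reads bears on this value as well. *Saa3* followed them less closely, with r of 0.596 to *Saa1* and 0.605 to *Saa2* (exact permutation *p* = 0.0888 and 0.0799, adjusted *p* = 0.178 each). Without M7 and M10 these values were 0.160 and 0.175, so what relation there was rested on those mice. *Saa4* had negative r with each of the other genes, from -0.35 to -0.27, and rho from -0.40 to -0.12 (exact permutation adjusted *p* = 0.492 to 0.776 by rho and 0.499 each by r). None of these *Saa4* relations passed the threshold. Within the clock phases, rho of *Saa4* was -0.0639 with *Saa1* and -0.0649 with *Saa2* (exact permutation *p* = 0.890 each). M7, the liver highest in *Saa1* and *Saa2*, was at 533 RPKM for *Saa4*, where M12 led with 557 RPKM.

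The genes whose level across these 9 livers was most like each member, among 10948 genes with a mean of at least 1 RPKM, are given by r on log2(RPKM + 0.1) as a description, since all points share their libraries. For *Saa1* they were *Cpne8* (r = 0.924), *Pld1* (0.923), *Gpr39* (0.892), *Slc3a1* (0.892) and *Ddost* (0.892). For *Saa2* they were *Pld1* (0.937), *Cpne8* (0.934), *Slc3a1* (0.914), *Prepl* (0.896) and *Ddost* (0.896), so that 4 genes were in both lists. *Pld1* encodes phospholipase D1, *Slc3a1* an amino acid transporter subunit and *Ddost* a subunit of the enzyme that attaches N-glycans in the endoplasmic reticulum. For *Saa3* they were the type I collagen genes *Col1a1* (0.934) and *Col1a2* (0.877), *Igkv17-121* (0.904), an immunoglobulin segment, *Prkcsh* (0.875), the glucosidase II beta subunit, and *Lrg1* (0.874), an acute-phase glycoprotein. For *Saa4* they were *C730036E19Rik* (0.948), *1700113A16Rik* (0.929), *Gemin6* (0.923), *Acaa1a* (0.913), a peroxisomal thiolase, and *Mgll* (0.911), monoacylglycerol lipase. Neither the *Saa3* nor the *Saa4* list shared a gene with the others. By rank some of these genes were less alike, and rho ran from 0.683 (*Ddost*) to 0.95 (*Pld1*) in the *Saa1* list. It ran from 0.633 (*Lrg1*) to 0.95 (*Col1a1*) in the *Saa3* list and from 0.7 (*Mgll*) to 0.917 (*C730036E19Rik*) in the *Saa4* list. *Igkv17-121* lay between 0 and 6.94 RPKM.

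Of the cytokines that induce SAA, 1 rose in pre-metastatic liver. *Il1b*, interleukin-1 beta, went from 0.721 ± 0.242 to 1.61 ± 0.638 RPKM, by 1.24 ± 0.28 on the log2 scale (edgeR adjusted *p* = 0.0042). *Tnf*, at 0.123 ± 0.0792 and 0.141 ± 0.109 RPKM, was not called (edgeR adjusted *p* = 0.786). *Il6* was at 0.042 ± 0.0389 and 0.0651 ± 0.049 RPKM in control and pre-metastatic liver, too few counts for the test. In all, 4 of the 10 cytokines had enough counts, and 1 of these was called higher, beside 17.6% of all genes tested. The median log2 fold change of the 4 was 0.70, where the median over all genes was 0.01.

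Receptors and factors through which these cytokines act are set beside the shares of all genes tested, 17.6% higher and 13.3% lower. Of 10 receptor genes tested, 7 were higher and 3 did not pass the test. The rises included *Il1r2*, a decoy receptor of interleukin-1 (2.14 on the log2 scale), *Osmr*, the oncostatin M receptor (2.08), and *Lifr*, the receptor of leukemia inhibitory factor (1.11). Of 12 kinases and transcription factors, 7 were higher and 1 was lower. *Stat3* rose from 27.2 ± 5.34 to 42.7 ± 5.34 RPKM without overlap (log2 fold change 0.73, edgeR adjusted *p* = 0.00156), *Relb*, an NF-kB subunit, by 1.29 and *Cebpd* by 0.87 on the log2 scale. *Cebpb*, at 57.2 ± 12.5 and 77.0 ± 24.7 RPKM, did not pass the test (edgeR adjusted *p* = 0.110). The hepatocyte factor *Hnf4a* fell by 0.70 on the log2 scale. Of 11 feedback inhibitors, 4 were higher and 7 did not pass the test. Those that rose were *Socs3*, which STAT3 induces and which limits it, from 9.17 ± 1.85 to 20.7 ± 5.67 RPKM (log2 fold change 1.26, edgeR adjusted *p* = 0.000523), *Socs1* (1.14), *Tnfaip3* (1.002) and *Nfkbie* (0.72). The medians of the 3 lists were 0.62, 0.43 and 0.72 on the log2 scale.

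Of 22 other positive acute-phase proteins, 17 were higher, 1 was lower and 4 did not pass the test, with a median log2 fold change of 1.27. *Orm2*, an orosomucoid, rose from 26.2 ± 11.99 to 947 ± 586 RPKM, a log2 fold change of 5.28 ± 0.69 (SE, edgeR adjusted *p* = 0.00013), the same to 2 decimals as that of *Saa2*. *Apcs*, serum amyloid P component, which binds amyloid fibrils, rose by 2.80 on the log2 scale, *Orm1* by 2.51 and *Lcn2*, lipocalin-2, by 2.32. *Hp*, haptoglobin, rose by 1.25. *Hamp*, hepcidin, which IL-6 induces and which lowers serum iron, went the other way, from 3294 ± 1479 to 494 ± 462 RPKM (log2 fold change -2.74, edgeR adjusted *p* = 0.00956). Of 10 negative acute-phase proteins, 2 were higher and 1 lower, shares near those of all genes tested (17.6% and 13.3%). *Rbp4*, retinol-binding protein 4, fell by 1.21 on the log2 scale, while *Serpina6*, which carries corticosteroids, rose by 2.22 and *Trf*, transferrin, by 1.23.

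Of 14 genes for SAA receptors and HDL partners, 13 were tested, 6 were higher and 1 was lower. Over all genes tested, 17.6% were higher and 13.3% lower. *Tlr2*, a Toll-like receptor that SAA can engage, rose from 0.655 ± 0.205 to 2.29 ± 0.849 RPKM without overlap (log2 fold change 1.88, edgeR adjusted *p* = 0.000142). *Fpr2*, the formyl peptide receptor for SAA, rose by 1.03 on the log2 scale and *Pltp*, phospholipid transfer protein, by 0.95. *Scarb1*, the HDL receptor of hepatocytes, fell by 0.54. *Apoa1*, the main HDL apolipoprotein that SAA can displace, was not called (log2 fold change -0.41, edgeR adjusted *p* = 0.115).

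**Figure D3:**
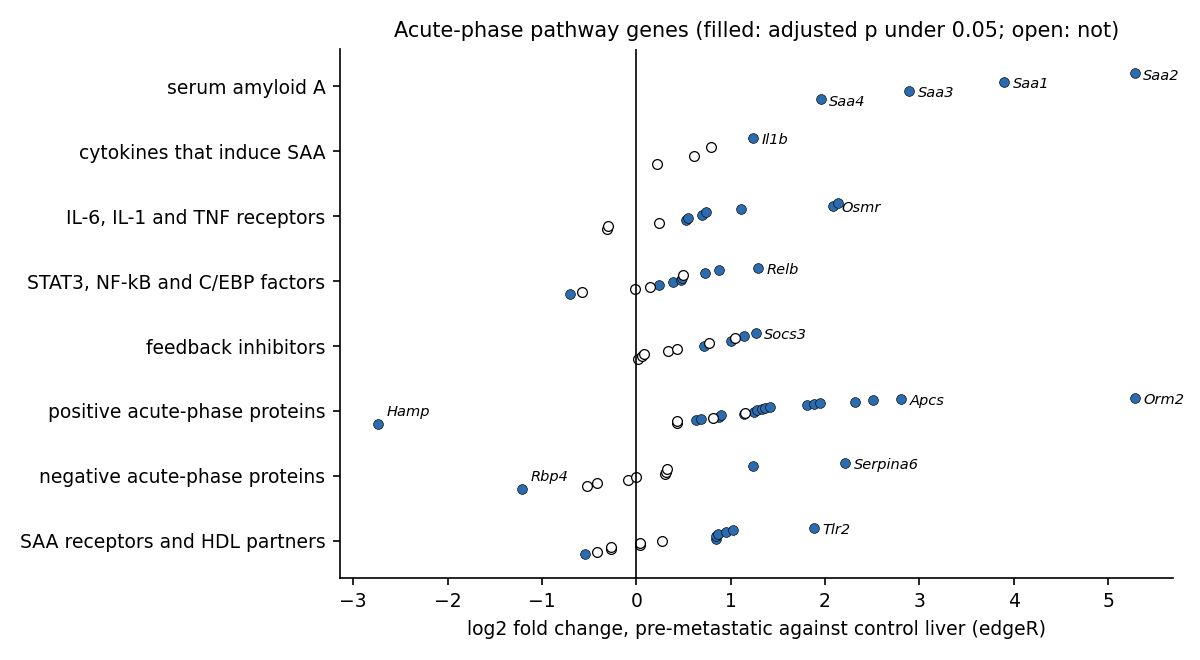
Log2 fold change between pre-metastatic and control liver (edgeR) of each gene tested in 8 lists, 1 point per gene. Filled points have an adjusted *p* under 0.05 and open points do not, and some genes are named. The 4 SAA genes lie between 1.95 and 5.28, and among the other positive acute-phase proteins *Orm2* is the highest at 5.28 and *Hamp* the lowest at -2.74.

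Markers of other cell types moved between the livers as well. Their calls are set beside the shares of all genes tested, 17.6% higher and 13.3% lower. The sum of 10 hepatocyte markers was 53689 to 65360 RPKM in control and 38851 to 68342 RPKM in pre-metastatic liver. Of these markers 3 were lower, 7 were not called and none was at 0 throughout a group, so both tissues carried their labelled cell type. Of 11 neutrophil markers tested, 8 were higher, and their sum went from a range of 6.95 to 23.9 RPKM to one of 7.77 to 151 RPKM. Of 10 macrophage and Kupffer cell markers, 8 were higher, with sums of 119 to 219 and 186 to 532 RPKM. Of 8 fibroblast markers 3 were higher (sums of 73.2 to 113 and 51.5 to 175 RPKM), and of 3 adipocyte markers tested 2 were lower (6.63 to 42.5 and 0.424 to 8.53 RPKM). Of 6 colon epithelium markers tested 4 were higher (13.9 to 25.4 and 31.4 to 110 RPKM), with *Cdx2* and *Lypd8* at 3 counts or fewer in every liver. Their part in the SAA values was not tested.

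In the primary tumor, *Saa1*, *Saa2* and *Saa4* were called lower than in either liver. *Saa3* was not called lower in the main fits, which did not pair the tissues by mouse. *Saa1* was at 1.04 to 21.6 RPKM in the tumors with a median of 2.04, and *Saa2* at 1.07 to 16.3 RPKM with a median of 2.11. *Saa4* was at 0.0176 to 1.55 RPKM with a median of 0.0765, on 2 to 173 counts. *Saa3* was at 28.2 to 304 RPKM with a median of 61.9. *Saa3* was thus the most abundant member in 9 of 9 tumors and made up 72.5% to 96.8% of the summed SAA RPKM, where in pre-metastatic liver it made up 0.335% to 1.77%. *Saa1* and *Saa2* overlapped in the tumors, with *Saa2* the higher in 2 of 9. The tumors held 10 colon epithelium markers at a sum of 43.4 to 124 RPKM, none of them at 0 in every tumor. That range overlapped the one of pre-metastatic liver (31.4 to 110 RPKM). Between these tissues 9 of the markers were tested, and 3 were higher in the tumor, 4 lower and 2 not called. Of all genes tested, 43.8% were higher and 39.5% lower. The sum of 8 fibroblast markers was 641 to 1059 RPKM in the tumors.

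Against pre-metastatic liver, edgeR's quasi-likelihood test called 43.8% of 19749 genes higher in the tumor and 39.5% lower. With library totals in place of TMM factors the calls were 13345 higher and 4202 lower, in place of 8642 and 7805, and the median log2 fold change of all genes moved from 0.13 to 1.30. *Saa1* was at 5.91 ± 6.71 RPKM (SD, n = 9) in the tumor, a log2 fold change of -11.09 ± 0.83 (SE, edgeR adjusted *p* = 2.45e-10). *Saa2* was at 4.37 ± 4.94 RPKM (log2 fold change -11.27 ± 0.88, edgeR adjusted *p* = 4.76e-10) and *Saa4* at 0.356 ± 0.588 RPKM (-11.44 ± 1.02, edgeR adjusted *p* = 3.69e-09). These 3 genes were lower under each scaling tried, did not overlap between the groups (14.2% of genes tested, and 52.9% in the other direction) and were lower in the tumor than in the liver of the same animal in 9 of 9 mice (exact sign-flip *p* = 0.00391 each, the smallest for 9 pairs).

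*Saa3* was not called between the tumor and pre-metastatic liver in the main fit, which did not pair the tissues by mouse. The fit with the mouse as a block, given below, called it lower. The direction of *Saa3* depended on the scaling. Its log2 fold change was -0.79 ± 0.40 (SE, edgeR adjusted *p* = 0.0772) with TMM factors and 0.41 ± 0.41 (edgeR adjusted *p* = 0.345) with library totals. Within a mouse, *Saa3* was higher in the tumor in 4 and lower in 5, and the mean difference in log2(RPKM + 0.1) was 0.18 ± 1.45 (SD, n = 9, exact sign-flip *p* = 0.742). The tumor held 37.1% to 865% of the *Saa3* RPKM of the matched liver, with M7 the lowest and M2 the highest. With the mouse as a block, *Saa3* was lower by -1.09 ± 0.44 on the log2 scale (edgeR adjusted *p* = 0.0402). It was also called lower without mouse M2 (-1.35, edgeR adjusted *p* = 0.000938) and in the early phase mice alone (-1.66, edgeR adjusted *p* = 0.00129).

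**Figure D4:**
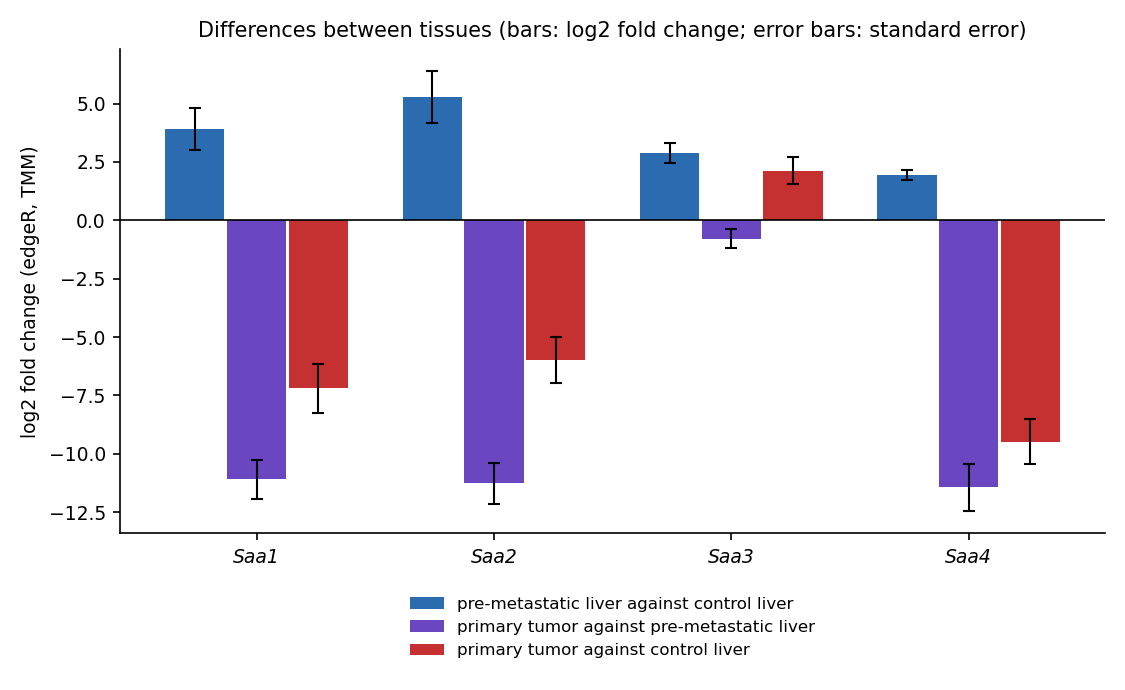
Log2 fold change of each SAA gene in the 3 comparisons, from edgeR with TMM factors, with its standard error. *Saa1*, *Saa2* and *Saa4* are lower in the tumor than in both livers, and *Saa3* is higher than in control liver (2.12). In these fits, which did not pair tissues by mouse, *Saa3* does not differ past the threshold from pre-metastatic liver. Its value there is -0.79, which became 0.41 when scaled by library totals. With the mouse as a block, *Saa3* was called lower than in pre-metastatic liver (-1.09).

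Against control liver, 44.1% of 19320 genes were called higher in the tumor and 38.0% lower by edgeR. Scaled by library totals, 12844 were called higher and 4128 lower, in place of 8525 and 7337. *Saa3* was higher in the tumor by 2.12 ± 0.58 on the log2 scale, or 4.35-fold (edgeR adjusted *p* = 0.00404), and every tumor exceeded every control liver, as was the case for 56.4% of the genes tested. In the early phase mice the *Saa3* difference was 1.26 (edgeR adjusted *p* = 0.0306) and with library totals 3.20 (edgeR adjusted *p* = 0.000281). *Saa1*, *Saa2* and *Saa4* were lower by -7.19 ± 1.05, -5.99 ± 0.99 and -9.48 ± 0.98 on the log2 scale (edgeR adjusted *p* = 2.26e-05, 6.97e-05 and 6.15e-07). In the early phase mice *Saa1* and *Saa2* were at -9.30 and -7.82 (edgeR adjusted *p* = 1.04e-05 and 5.28e-05). Without mice M10 and M12, *Saa1*, *Saa2* and *Saa4* were at -8.12, -7.01 and -11.89 (edgeR adjusted *p* = 8.29e-06, 1.63e-05 and 7.78e-12). *Saa1* and *Saa4* did not overlap between the groups (17.1% of genes tested), whereas *Saa2* did, since the tumor of M12 (16.3 RPKM) lay above the control livers C5 (15.4 RPKM) and C7 (13.96 RPKM). Without C1, the differences of *Saa1* and *Saa2* were -5.93 and -4.21 (edgeR adjusted *p* = 5.49e-05 and 0.000222). The comparisons share their samples in pairs and are not independent.

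The tumors were not alike in *Saa1*, *Saa2* and *Saa4*. For *Saa1*, the tumors of the 4 late phase mice were at 4.01 (M1), 8.84 (M2), 9.77 (M10) and 21.6 (M12) RPKM, and those of the 5 early phase mice at 1.04 to 2.04 RPKM. *Saa2* and *Saa4* parted in the same way, with late phase tumors at 3.48 to 16.3 and 0.125 to 1.55 RPKM and early phase tumors at 1.07 to 2.11 and 0.0176 to 0.0765 RPKM. The sum of 10 hepatocyte markers parted likewise, at 13.5 to 288 RPKM in the late and 6.63 to 10.9 RPKM in the early phase tumors. The *Saa3* ranges of the phases overlapped.

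Set against the liver of the same mouse, the tumor of M12 held 0.394% of the *Saa1* RPKM, 0.392% of *Saa2* and 0.279% of *Saa4*, beside 0.441% of the hepatocyte marker sum. The tumor of M10 held 0.633% of *Saa1*, 1.26% of *Saa2* and 0.234% of *Saa4*, beside 0.240% of the marker sum. In M2 the values were 0.274%, 0.190% and 0.0303% beside 0.0657%. In the other 6 mice the tumor held 0.0104% to 0.0280% of the marker sum. No hepatocyte marker was at 0 in every tumor. Without mice M10 and M12, a choice made after these sums were seen, the log2 fold changes against pre-metastatic liver were -12.18 for *Saa1*, -12.50 for *Saa2*, -13.78 for *Saa4* and -0.90 for *Saa3*, the last still not called (edgeR adjusted *p* = 0.0942). The part of these markers in the SAA levels of the tumors was otherwise not tested.

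**Figure D5:**
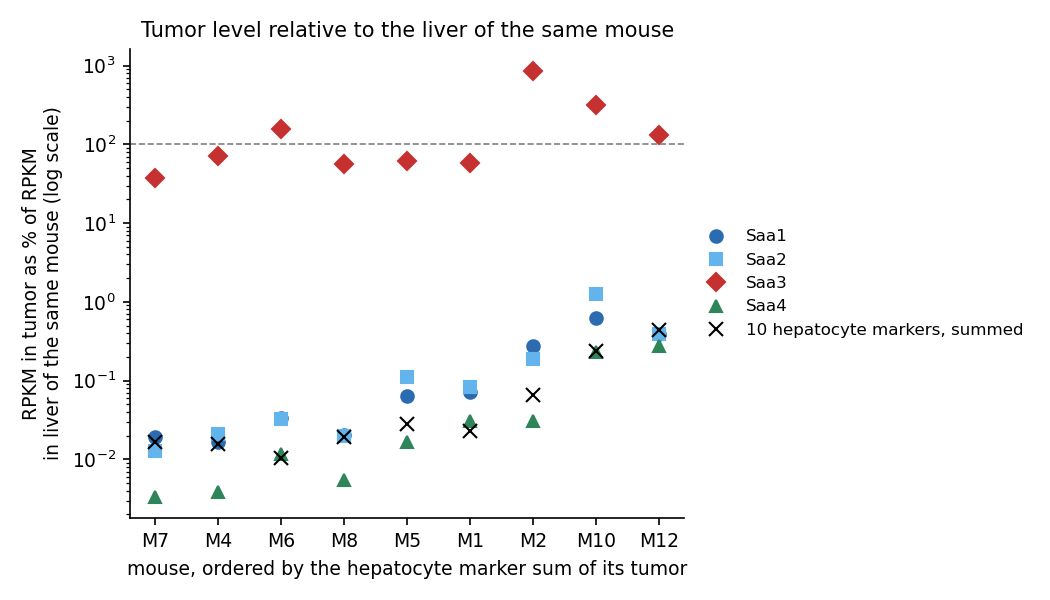
RPKM in the tumor as a percentage of RPKM in the liver of the same mouse, on a log axis, for each SAA gene and for the sum of 10 hepatocyte markers. Mice are ordered by the marker sum of their tumor. *Saa3* lies between 37.1% and 865%, and *Saa1*, *Saa2* and *Saa4* lie at or below 1.26% and are highest in M10 and M12, the mice whose tumors have the highest marker sums.

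The genes most like *Saa1* across the 9 tumors, among 12766 genes with a mean of at least 1 RPKM, were *Serpina1c* (r = 0.967), *Hpx* (0.966), *Orm1* (0.965), *Itih3* (0.964) and *Apoc3* (0.963), all of which encode plasma proteins secreted by hepatocytes. Those most like *Saa3* were the lysosomal proteases *Ctsd* (0.969) and *Ctsb* (0.959), the transcobalamin gene *Tcn2* (0.961), *Ces1d* (0.959), a carboxylesterase, and *4931406P16Rik* (0.959). The tumor of M2, highest in *Saa3*, had the highest sum of macrophage markers, at 1354 against 524 to 1096 RPKM in the other tumors. It also had the highest sum of fibroblast markers, at 1059 against 641 to 974 RPKM. The tumor of M4, lowest in *Saa3* (28.2 RPKM), had a macrophage marker sum of 982 RPKM. That of M6, with *Saa3* at 108 RPKM, had a sum of 863 RPKM. Of the 10 macrophage markers, none was at 3 counts or fewer in every tumor. The part of either cell type in the *Saa3* level was not tested. Across the 9 mice, these values of r are descriptions, and all points share their libraries.

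The cytokines that induce SAA were mostly higher in the tumor, with 7 of 8 tested called above pre-metastatic liver and 1 below it. Over all genes tested, 43.8% were called higher and 39.5% lower. *Il11* was at 9.68 ± 6.98 RPKM in the tumor and 0.0173 ± 0.0257 RPKM in the liver (edgeR adjusted *p* = 2.22e-10), and *Lif* at 3.05 ± 0.834 and 0.0158 ± 0.0219 RPKM (edgeR adjusted *p* = 2.36e-10). *Il6* was at 1.30 ± 0.642 and 0.0651 ± 0.049 RPKM (edgeR adjusted *p* = 2.03e-06). The RPKM values, scaled by library totals, did not overlap between tissues for the 7 genes, as was the case for 52.9% of all genes tested in that direction. *Il1a* was lower in the tumor, at 0.392 ± 0.319 against 0.842 ± 0.301 RPKM (edgeR adjusted *p* = 1.55e-05).

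Liver SAA levels were then set against tumor levels mouse by mouse, for tumor *Il6*, *Il1a*, *Il1b*, *Tnf*, *Lif*, *Osm* and *Csf3* with liver *Saa1* and *Saa3*, and for each SAA gene in both tissues. Of the tumor cytokines named above, *Il11* was not among these relations, and *Csf3* rested on only 1 to 29 counts in the tumors. None of the 18 relations passed the threshold over 9 mice (exact permutation adjusted *p* = 0.560 to 0.982 by Spearman's rho and 0.778 to 0.926 by Pearson's r). The smallest unadjusted value was that of *Saa2* in the tumor with *Saa2* in the liver (rho = -0.73, exact permutation *p* = 0.0311, adjusted *p* = 0.560; r = -0.51, exact permutation *p* = 0.164). Within the clock phases that rho was -0.37 (exact permutation *p* = 0.413). For *Il6* in the tumor and *Saa1* in the liver r was -0.18 (exact permutation *p* = 0.641, adjusted *p* = 0.879), and for *Saa3* in the liver it was -0.0352 (exact permutation *p* = 0.926, adjusted *p* = 0.926). Without mice M4 and M8, farthest from the median of tumor *Il6*, these r were -0.76 and -0.84 (exact permutation *p* = 0.0468 and 0.0248, not adjusted), so the values depended on those mice.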

How the data were processed

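RNA-seq of 23 poly(A) libraries (5 control livers, 9 pre-metastatic livers and 9 primary tumors) was analysed. The authors deposited 1 table of 48897 genes with raw counts, the gene length and RPKM per library. The submitters' processing notes name HISAT, HISAT2, HTSeq 0.6.0 and mm10. Recomputed RPKM values differed by at most 1.75e-06 of themselves. Tumor and liver of an animal carry the same mouse number. Across 12453 genes, the mean correlation of their deviations from the group mean was 0.0876 within a mouse and -0.0111 between mice, and the pairing comes from the labels.

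Genes reaching 10 counts in 5 or more libraries were tested with edgeR 4.0.16 in R 4.3.3 (TMM, robust quasi-likelihood, two-sided, Benjamini-Hochberg), 1 fit per comparison, with DESeq2 1.42.0 as an alternative. The main fits held no term for the mouse, which entered as a block in an alternative fit of tumor and pre-metastatic liver. Exact tests enumerated all allowed rearrangements with numpy 2.4.6, with ranks from scipy 1.17.1. The SE of an edgeR log2 fold change was its size divided by the square root of the F statistic of the test. The steps were tested on simulated data. The members and the gene and marker lists were chosen with earlier results of these data known. The genes named are the members, up to 4 called genes of each list with the largest change and 10 genes fixed by name. The 5 most like a member and neighbours within 100 kb are also named. *Scarb1*, *Apoa1*, *Il1a*, *Cdx2* and *Lypd8* were named outside that rule, as were the tumor cytokines set against liver SAA levels. Larger called changes of the same lists were left unnamed in places. The labels name separate mice, so the spread is between animals. 1 gene of the lists is not reported here.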

Additional observations from a re-analysis of the deposited data

Results flagged for a closer look

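Single libraries stood far from the rest of their group by Dixon's test in 7 of 33 groups of values examined. Chance gives about 1 in 20 only for independent groups of normally distributed values. These groups shared libraries and the values were not on a log scale, so the count cannot be set against that rate. The control liver C1 stood apart for *Saa2*, at 473 RPKM with the next liver at 92.5 RPKM. The tumor of M12 stood apart for *Saa1*, at 21.6 RPKM with the next tumor at 9.77 RPKM, and for *Saa2*, at 16.3 RPKM with the next at 7.96 RPKM. The tumor of M2 stood apart for *Saa3*, at 304 RPKM with the next at 108 RPKM, and for the ratio of *Saa1* to *Saa2*, at 2.54 with the next at 1.52. Among marker sums, the liver of M1 stood apart for neutrophil markers, at 151 RPKM with the next liver at 70.0 RPKM, and the liver of M5 for adipocyte markers, at 8.53 RPKM with the next at 3.70 RPKM. The SAA values of the livers of M1 and M5 were within the range of the other livers for *Saa1*, *Saa2* and *Saa4*, and M1 was the highest for *Saa3*.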

How the results depend on the processing

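The higher level of the 4 SAA genes in pre-metastatic liver kept its direction and call under DESeq2, library totals, no count filter, the early phase alone, the summed pair and each mouse left out. Without single mice, the log2 fold change was 3.60 to 5.19 for *Saa1*, 4.99 to 7.10 for *Saa2*, 2.74 to 3.24 for *Saa3* and 1.85 to 2.12 for *Saa4*, with 2510 to 2951 genes called higher and 1757 to 2308 lower. Against pre-metastatic liver, *Saa3* in the tumor turned to 0.41 with library totals. Its mean difference in log2(RPKM + 0.1) was 0.18, and the rank-sum test on RPKM gave an exact *p* = 0.931. It became a call at -0.84 with DESeq2 (adjusted *p* = 0.0385), -1.66 in the early phase and -1.09 with the mouse as a replicate block. The block changed no other SAA call. Without single mice, *Saa3* ranged from -1.35 (without M2) to -0.61, *Saa1* from -11.67 to -10.80, *Saa2* from -11.89 to -10.91 and *Saa4* from -12.11 to -11.24, with 8333 to 8456 genes called higher and 7541 to 7650 lower. Against control liver, *Saa1* ranged from -7.77 to -5.93, *Saa2* from -6.58 to -4.21, *Saa3* from 1.65 (without M2) to 2.44 and *Saa4* from -10.19 to -9.32, with 8230 to 8471 genes called higher and 6568 to 7315 lower. The lowest values of *Saa1*, *Saa2* and *Saa4* in both tumor comparisons came without M12. Library totals moved the calls to 13345 higher and 4202 lower against pre-metastatic liver, and to 12844 and 4128 against control liver. Within the clock phases, the rho of liver *Saa1* with tumor *Lif* turned to -0.25 and with tumor *Csf3* to -0.11, neither past the threshold. In the early phase, *Saa4* failed the count filter in the fit of tumor and control liver, so no value was made. *Saa4* rests on 2 to 173 counts in the tumors, which limits its level there, and reads shared by *Saa1* and *Saa2* limit the split of that pair in all tissues. The cause of these shifts was not tested.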
